A study of Mus musculus with 16 samples.

Results

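The genes described here are the very long protein-coding genes of mouse skin, and the comparison is between skin exposed to ultraviolet B (UVB) and skin that was not. A gene was taken as very long where it lay on an autosome, was annotated as protein-coding and had a gene record of at least 500 kb in GENCODE M39 on the GRCm39 assembly. It was also required to average at least 1 CPM, where CPM is a gene's counts scaled to an equal total in each mouse, over the 8 mice without UVB. Of 20527 autosomal protein-coding genes, 219 had a record of at least 500 kb, and 129 of these reached 1 CPM. The other 90 were under that minimum. The comparison set was formed by 13453 shorter protein-coding genes that passed the same minimum. The 129 genes were spread over all the autosomes, with 1 to 11 genes on each.

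The samples were whole dorsal skin of 16 wild-type mice labelled C57Bl/6, which the study's text gives as the C57Bl/6N substrain, all 8 weeks old, whose hair follicles were at rest (telogen). There were 4 mice in each of 4 groups: males with UVB, males without UVB, females with UVB and females without UVB. The UVB mice had 3 exposures, and the study collected their skin 6 h after the last of these, on day 5. No group carried a transgene or a deletion, and polyA-enriched RNA was sequenced with strand information kept. Whole skin holds many cell types, so in these bulk samples fewer cells of a type and less RNA per cell cannot be told apart.

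Length matters to transcription because RNA polymerase II has to travel the whole gene before the transcript is complete. UVB joins neighbouring pyrimidines in DNA, chiefly as cyclobutane dimers, and a dimer on the template strand blocks the polymerase. Transcription-coupled repair removes such lesions once the stalled polymerase has been recognised by the Cockayne syndrome proteins CSB (*Ercc6*) and CSA (*Ercc8*) and UVSSA. Most of the length of a very long gene is intron, so the mature RNA counted here is a small part of what the polymerase transcribes. Many of these genes are known from neurons and muscle, and several span the chromosomal regions known as common fragile sites.

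The members differed from the shorter genes in much besides length. Their median record spanned 664 kb (interquartile range 566 to 928 kb) against 26.0 kb for the shorter genes, and the median longest intron was 163 kb against 6.90 kb. Exons made up a median of 1.89% of a member's record and 24.0% of a shorter gene's. The median GC content was 40.7% against 46.2%, and the template strand held 87.9 TT steps per kb against 71.0. All dipyrimidine steps together were alike per kb, with medians of 268 and 272. Per gene, a median member carried 177771 template dipyrimidines and a median shorter gene 7068. 

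The sequence just before the transcription start was examined in the same assembly, as the 200 bases upstream of the start of the GENCODE canonical transcript. The letters CG were searched for, which read the same on both strands. The median number of CG steps was 8 in the members and 10 in the shorter genes, and at least 10 were present in 45.7% and 53.4% of the windows. Windows are shown for 4 members chosen after their values were seen. *Nckap5* and *Robo1* stand for the large falls, *Lama2* for an abundant gene with a smaller fall, and *Rora* for a gene that rose in males. Capitals mark each CG.

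Nckap5 (chr1:126758516-126758715, minus strand): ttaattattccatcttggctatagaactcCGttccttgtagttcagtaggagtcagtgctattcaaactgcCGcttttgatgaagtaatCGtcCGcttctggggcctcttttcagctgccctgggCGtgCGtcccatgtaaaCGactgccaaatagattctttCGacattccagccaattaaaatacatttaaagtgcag
Robo1 (chr16:72459578-72459777, plus strand): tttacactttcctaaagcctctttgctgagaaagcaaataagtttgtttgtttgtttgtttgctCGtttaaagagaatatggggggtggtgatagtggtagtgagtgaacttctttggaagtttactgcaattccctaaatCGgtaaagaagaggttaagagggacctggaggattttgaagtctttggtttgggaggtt
Lama2 (chr10:27492910-27493109, minus strand): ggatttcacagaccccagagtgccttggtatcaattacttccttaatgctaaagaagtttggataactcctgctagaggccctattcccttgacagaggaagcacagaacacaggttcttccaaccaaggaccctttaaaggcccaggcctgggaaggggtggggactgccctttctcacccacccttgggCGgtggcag
Rora (chr9:69196764-69196963, plus strand): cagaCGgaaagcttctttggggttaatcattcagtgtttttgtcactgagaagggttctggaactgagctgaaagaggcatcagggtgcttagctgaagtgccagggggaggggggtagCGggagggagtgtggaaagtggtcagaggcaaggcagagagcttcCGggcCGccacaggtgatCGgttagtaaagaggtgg

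The windows held 8, 2, 1 and 5 CG steps in that order. The *Nckap5* and *Lama2* windows overlapped exons of other annotated transcripts by 21 and 29 bases. Those of *Robo1* and *Rora* lay within their gene records with no annotated exon, in introns of longer transcripts. The gene that rose in males lay within the range of those that fell.

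A single level was computed for each mouse to show the members together. For every gene, log2(CPM + 0.5) was expressed as a deviation from the gene's mean over the 8 no-UVB mice of both sexes. The long-gene level is the median of these deviations over the 129 members minus the median over the shorter genes. In males it was 0.0109, 0.0179, −0.0299 and −0.0518 without UVB and −0.879, −0.837, −0.798 and −0.784 with UVB. In females it was −0.0912, 0.0546, 0.0371 and 0.0351 without UVB and −0.582, −0.482, −0.724 and −0.677 with UVB. The UVB mice lay well below the others in both sexes, with no overlap, and the group means were −0.825 ± 0.043 in UVB males and −0.616 ± 0.107 in UVB females (SD, n = 4). Most members took part, since 93.0% to 95.3% of them lay below the no-UVB mean in each UVB male, and 89.1% to 95.3% in each UVB female.

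**Figure D1:**
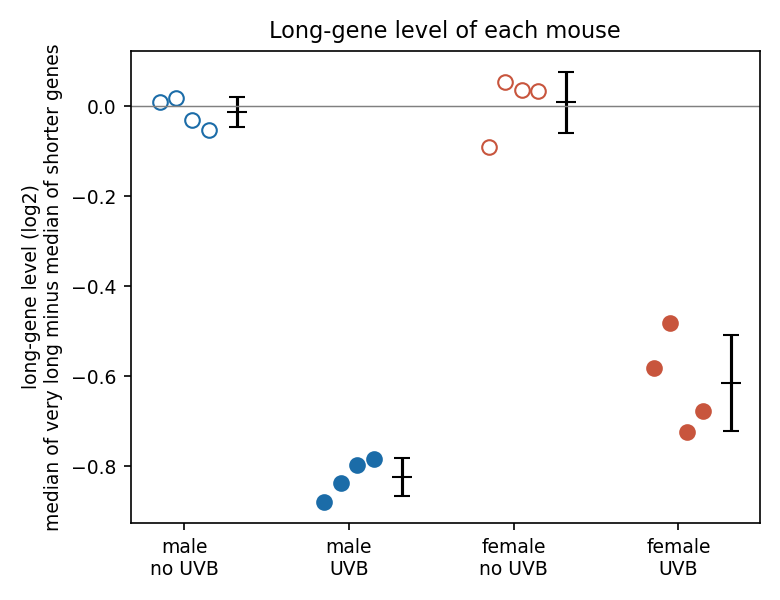
Long-gene level of each of 16 mice on a log2 scale (vertical axis) in the 4 groups (horizontal axis), with points for mice and a dash and bar for the group mean and SD (n = 4). The UVB males lie between −0.879 and −0.784 and the UVB females between −0.724 and −0.482, all below the mice without UVB.

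Gene by gene, UVB was compared with no UVB within each sex by edgeR's quasi-likelihood test, and a gene was called at a Benjamini-Hochberg adjusted p under 0.1 over all genes tested. The log2 fold change is the UVB level over the no-UVB level, and all 129 members were tested in both sexes. In males 116 members fell, 3 rose and 10 were not called. Over all genes tested in males, 30.5% were lower and 29% were higher, from 5051 and 4802 calls that became 6130 and 3880 under upper quartile scaling and 4655 and 5013 with every gene with a count. The median log2 fold change of the members was −0.92 (interquartile range −1.19 to −0.62), or 52.8% of the level without UVB, and that of the shorter genes was −0.02. The members' share called lower was 89.9%, against 32.5% of the shorter genes.

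In females 88 members fell, 1 rose and 40 were not called. Over all genes tested in females, 10.6% were lower and 12.8% were higher, from 1787 and 2162 calls that became 2157 and 1737 under upper quartile scaling. The members' median was −0.64 (interquartile range −0.94 to −0.39), or 64.2% of the level without UVB, and that of the shorter genes was 0.01. The members' share called lower was 68.2%, against 11.2% of the shorter genes. Of the 40 members not called, most still had a value below 0, and 125 of all 129 did.

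Falls of more than 1 on the log2 scale were found for 54 members in males and 29 in females. The background of that stricter call was 3.31% of genes in males and 1.08% in females. These counts have a limit, because the minimum was set on the unexposed mice and kept genes that fell below it after UVB. With the minimum over the UVB mice, 116 genes were members, and 102 fell in males and 79 in females at any size of change. The stricter call is not given for that set. No member was called higher by more than 1 in either sex by edgeR's test, beside a background of 4.08% of all genes in males and 1.63% in females. Nothing is read from this, because the minimum in the unexposed mice left out long genes that were low there, 2 of which rose by more than 1 in males. The CPM of all 4 UVB mice lay below those of all 4 no-UVB mice for 105 members in males and 76 in females, where the background over all genes was 24.3% and 10.1%. This held in both sexes for 73 members, beside 7.47% of all genes.

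The fall was graded by gene length, and the members continued a trend that began among shorter genes. In males the median log2 fold change was 0.06 for genes under 10 kb (n = 2794), 0.03 from 10 to 30 kb and −0.02 from 30 to 100 kb. It was −0.30 from 100 to 250 kb (n = 1429), −0.66 from 250 to 500 kb (n = 375), −0.90 from 500 to 1000 kb (n = 101) and −0.98 from 1000 kb (n = 28). In females the same classes had medians of 0.12, 0.05, −0.03, −0.20, −0.47, −0.62 and −0.74. The members thus had the lowest medians in both sexes, but no step separated them from genes of 250 to 500 kb.

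The calls followed the medians. Among genes under 10 kb, 632 were lower and 1039 higher in males, and 71 were lower and 673 higher in females. Between 250 and 500 kb, 318 were lower and 10 higher in males, and 238 were lower and 4 higher in females. Of the 28 members of at least 1000 kb, 27 fell in males and 19 in females, and none rose. Just inside 500 kb stood *Edil3* (503 kb), with log2 fold changes of −1.76 in males and −0.92 in females, and *Dock1* (503 kb), with −1.09 and −0.96. Just outside stood *Dock2* (498 kb), with −0.97 in both sexes, and *Dnm3* (496 kb), with −0.80 and −0.60.

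**Figure D2:**
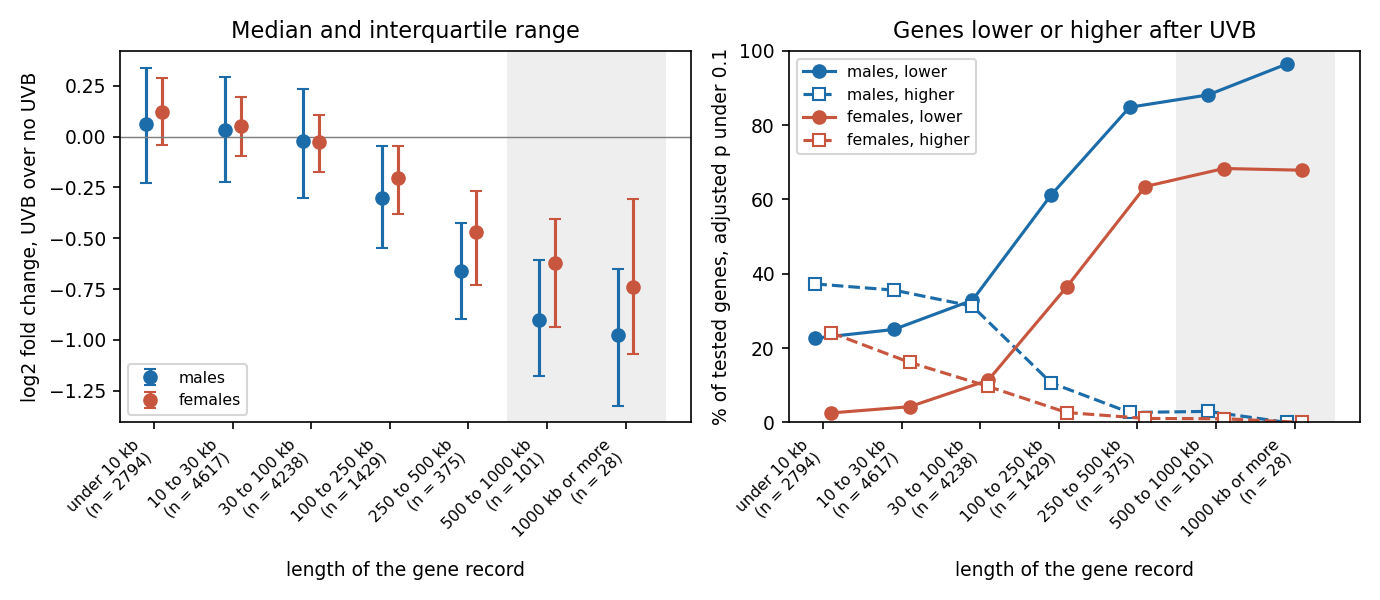
Left, median and interquartile range of the log2 fold change (UVB over no UVB, vertical axis) of genes in 7 classes of gene record length (horizontal axis), in males and females. Right, the share of tested genes in each class that were lower or higher at an adjusted p under 0.1, with the members' classes shaded. The male median runs from 0.06 under 10 kb to −0.98 from 1000 kb.

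A gene record can be longer than most of its transcripts, because a single long annotated isoform sets its length. The GENCODE canonical transcript was used as a stand-in, since which isoform the skin expresses was not measured here. The canonical transcript spanned less than 250 kb in 12 members, among them *Fgfr2*, *Rora*, *Foxp1* and *Zfhx3*, and these had median log2 fold changes of −0.12 in males and −0.15 in females. Of these 12, 5 fell and 2 rose in males, and 2 fell in females. Where the canonical transcript spanned 250 to 500 kb, all 23 members fell in males and 16 in females, with medians of −0.92 and −0.56. Where it spanned at least 500 kb, 88 of 94 fell in males and 70 in females, with medians of −0.98 and −0.73. Of the 10 members that fell in neither sex, 6 had a canonical transcript under 250 kb.

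There were exceptions in the other direction, named here after their values were seen. *Magi2* has a canonical transcript of 1478 kb and was not called in either sex, at −0.10 in males and 0.01 in females. *Mecom*, with 558 kb, was not called either, at 0.06 and 0.03. Across the 129 members, Spearman's rho of the log2 fold change with canonical span was −0.20 in males and −0.28 in females, and with record length −0.03 and −0.10, as a description across genes that share the same libraries.

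**Figure D3:**
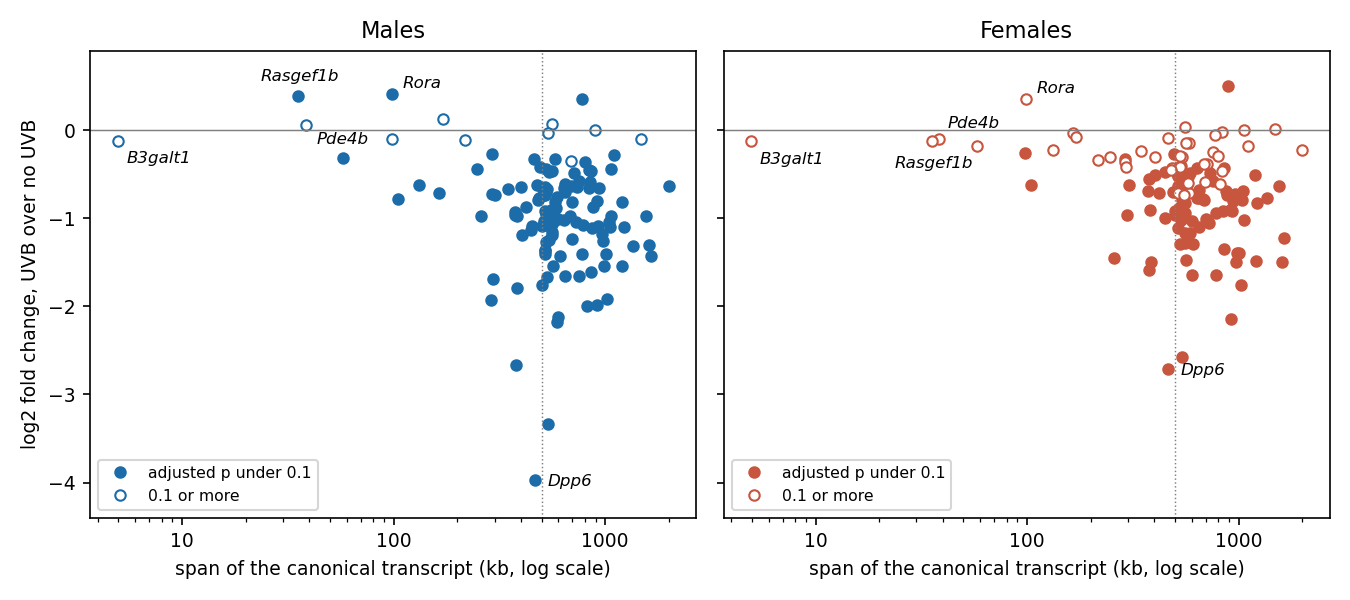
Log2 fold change of each member (UVB over no UVB, vertical axis) against the span of its canonical transcript (kb, log scale), in males and in females. Filled points passed an adjusted p of 0.1, open points did not, and the dotted line marks 500 kb. The 12 members under 250 kb lie around medians of −0.12 in males and −0.15 in females, above most of the others.

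Length moves together with exon length, level and base composition, so the same classes were read within narrower sets of genes. Among genes with 8 to 16 kb of exon, the male median was 0.01 at 30 to 100 kb (n = 1975), −0.68 at 250 to 500 kb and −1.03 at 500 to 1000 kb (n = 47), and the female medians were −0.02, −0.47 and −0.71. Among genes of 1 to 5 CPM without UVB, the medians were −0.27 and −0.15 at 30 to 100 kb (n = 447) and −0.88 and −0.60 at 500 to 1000 kb (n = 29). Among those of at least 100 CPM they were 0.04 and −0.00 (n = 689) and −0.67 and −0.46 (n = 7). Among genes under 40% GC, the medians were 0.11 and 0.01 at 30 to 100 kb (n = 629) and −0.90 and −0.59 at 500 to 1000 kb (n = 38). The gap between members and shorter genes was smaller in males, at −0.75 in place of −0.90, when only shorter genes of at most 10 CPM were used. The part of exon length, level and GC content in the members' falls was not tested beyond these values. Across the members themselves, rho of the log2 fold change with GC content was 0.03 in males and −0.02 in females, and with TT steps per kb 0.02 and 0.08.

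The members were next grouped by role, from lists of genes with a known function, and a gene can be in more than 1 list. The adhesion proteins of neurons and synapses had 16 members, of which 16 fell in males and 13 in females, with median log2 fold changes of −1.13 and −0.84. *Tenm4*, a teneurin that joins cells across synapses and is also expressed in mesenchyme, had 75.02, 79.8, 72.0 and 56.9 CPM in males without UVB and 28.8, 26.9, 26.8 and 36.7 CPM with UVB. It fell by 1.23 on the log2 scale (SE 0.12, adjusted p = 2.51e-05) in males and by 1.01 (SE 0.23, adjusted p = 0.0162) in females. The male groups did not overlap. *Tenm2*, of the same family, fell by 0.65 in males (adjusted p = 0.00317) and by 0.81 in females (adjusted p = 0.0446), and the female call was lost without female UVB mouse 1 (adjusted p = 0.111) or female no-UVB mouse 2 (adjusted p = 0.103) and with every gene with a count (0.192). *Ptprd*, a receptor phosphatase of synapses, fell by 0.67 in males (adjusted p = 0.00191). Its female value was −0.43 (adjusted p = 0.0783), a call lost without female UVB mouse 1, 3 or 4 or female no-UVB mouse 2 or 4 (0.125 to 0.189). *Adgrl3*, a latrophilin that binds teneurins, fell by 1.41 in males and by 1.65 in females. *Astn2*, which acts in the migration of young neurons, fell by 1.92 and by 1.76.

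All 6 members of the list of cadherins, protocadherins and catenins fell in both sexes, with medians of −1.32 and −0.98. The list also held *Adgrv1*, an adhesion receptor of another family, which had its largest falls (−3.33 and −2.58). The female count includes *Ctnna3*, an α-catenin, at −0.64 (adjusted p = 0.0904), whose call was lost with the replicate block (0.102) and without female UVB mouse 1, 3 or 4 or female no-UVB mouse 2, 3 or 4 (0.121 to 0.223). *Cdh13* encodes T-cadherin, which is tethered to the membrane by a lipid anchor, and lies at chr8:119010328-120051660. In males its level was 111 ± 12.3 CPM without UVB and 53.3 ± 4.72 CPM with UVB (SD, n = 4), and in females 87.4 ± 7.85 and 50.1 ± 3.91 CPM. The log2 fold changes were −1.04 (SE 0.09, adjusted p = 5.39e-06) and −0.79 (SE 0.08, adjusted p = 0.000332). *Ctnnd2*, δ-catenin, fell by 1.61 in males and by 1.34 in females. *Adgrv1*, a giant adhesion receptor of hair cells in the inner ear, had 1.72, 2.30, 1.65 and 1.66 CPM in males without UVB and 0.187, 0.191, 0.106 and 0.209 CPM with UVB. The pooled counts of *Adgrv1* after UVB came to 9.49% of those without in males (95% exact interval 5.19% to 16.1%) and 16.2% in females (9.98% to 25.3%), intervals that cover counting error only. *Fat3*, an atypical cadherin, fell by 2.18 in males (adjusted p = 0.000189) and by 1.17 in females (adjusted p = 0.0469), a call lost without female UVB mouse 1 (0.109) or female no-UVB mouse 2 (0.119).

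The axon guidance ligands and receptors had 4 members, which all fell in males, at a median of −0.74, while 2 fell in females, at −0.60. *Slit3*, a secreted ligand, fell by 0.75 in males (adjusted p = 4.12e-05) and by 0.49 in females (adjusted p = 0.0107). *Robo1*, a receptor for Slit ligands, lies at chr16:72105194-72844378. It had 43.7, 38.8, 43.8 and 37.1 CPM in males without UVB and 12.0, 11.3, 13.9 and 9.23 CPM with UVB. In females the values were 40.4, 54.7, 47.6 and 41.2 CPM without UVB and 16.5, 12.4, 20.1 and 16.04 CPM with UVB. The highest UVB mouse had 20.1 CPM and the lowest unexposed mouse 37.1 CPM, and the log2 fold changes were −1.79 (SE 0.12, adjusted p = 1.25e-06) in males and −1.50 (SE 0.15, adjusted p = 0.000255) in females. *Robo2* fell by 0.73 in males (adjusted p = 0.00131), and in females it had −0.72 with a wider error and was not called (adjusted p = 0.108). It was called lower in females by the DESeq2 Wald test (adjusted p = 0.0403), with upper quartile scaling (0.0917), with at least 10 counts in every mouse (0.0911) and without female no-UVB mouse 4 (0.0512), which would make 3 of 4.

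Of the extracellular matrix genes, all 6 fell in both sexes, at medians of −1.06 and −0.74. *Lama2*, a laminin chain of basement membranes, lies at chr10:26856032-27495754. It had 172, 185, 209 and 202 CPM in males without UVB and 105, 102, 137 and 134 CPM with UVB, a fall by 0.66 (SE 0.11, adjusted p = 0.000473). In females it went from 148, 144, 143 and 174 CPM to 112, 119, 98.6 and 119 CPM, a fall by 0.43 (SE 0.09, adjusted p = 0.0118). The groups did not overlap in either sex. *Csmd1*, a large membrane protein of complement control, fell by 1.43 in males and by 1.22 in females. *Adamtsl1*, a secreted relative of matrix proteases, fell by 0.92 and by 0.69.

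All 4 muscle members fell in males, at a median of −0.81, against 1 in females, at −0.48. The male call of *Ryr3*, a ryanodine receptor, at −0.88 (adjusted p = 0.0354), was lost without male no-UVB mouse 3 (0.109). The gene that fell in females was *Cacna1c*, the pore of the L-type calcium channel, with −0.74 (adjusted p = 0.000128) in males and −0.65 (adjusted p = 0.0019) in females. *Sgcd*, δ-sarcoglycan of the muscle membrane, fell by 0.64 in males and had −0.31 in females (adjusted p = 0.157), where it passed without female UVB mouse 2 (0.0848) or female no-UVB mouse 1 (0.0330). The summed level of 10 skeletal muscle markers, none of them a member, had medians of 26210 CPM in males without UVB and 17984 CPM with UVB, and of 20151 and 20671 CPM in females. Of the 10 markers, 8 were called lower in males and 0 in females. The part of muscle content in these falls was not tested.

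Of 9 channels and neurotransmitter receptors or their partners, 9 fell in males, at a median of −1.15, and 4 in females, at −0.59. *Dpp6*, an accessory subunit of A-type potassium channels at chr5:27022201-27932503, had the largest fall of all members. *Dpp6* passed the 1 CPM minimum through the unexposed mice, at 1.51 CPM, and averaged 0.131 CPM in each UVB group. Its rank thus rests in part on the values that the minimum used. It had 2.38, 2.85, 1.95 and 1.26 CPM in males without UVB and 0.0934, 0.0638, 0.211 and 0.156 CPM with UVB, the latter from counts of 3, 1, 4 and 3 reads. Its pooled counts after UVB were 5.95% of those without in males (95% exact interval 2.92% to 10.9%) and 14.8% in females (7.62% to 26.6%). The neuronal channel subunit thus approached the detection limit in exposed skin. *Kcnq5*, a potassium channel, fell by 0.46 in males (adjusted p = 0.00375) and had −0.15 in females (adjusted p = 0.691). *Slc9a9*, an endosomal sodium-proton exchanger, fell by 1.15 and by 1.28.

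The kinases, phosphodiesterases and growth factor signalling genes had 14 members, of which 11 fell in males and 8 in females, at medians of −0.75 and −0.51. *Fgfr2*, a receptor for fibroblast growth factors made in keratinocytes, has the longest record of all, at chr7:129763471-132725079. It had 136, 116, 116 and 92.5 CPM in males without UVB and 61.7, 56.1, 77.7 and 69.0 CPM with UVB, a fall by 0.78 (SE 0.13, adjusted p = 0.000663). In females it had 97.5, 107, 111 and 92.1 CPM and then 69.1, 51.4, 65.1 and 77.6 CPM, a fall by 0.62 (SE 0.12, adjusted p = 0.00591). The groups did not overlap, although its canonical transcript is short. *Sorcs3*, a sorting receptor of neurons, fell by 2.12 in males and by 1.65 in females. *Mast4*, a microtubule-associated kinase, was not called in either sex, with 0.13 in males (adjusted p = 0.13) and −0.07 in females (adjusted p = 0.664), but the male value passed as higher without male UVB mouse 4 (0.0931) or male no-UVB mouse 3 (0.0381). *Pde4d*, a cyclic AMP phosphodiesterase, had −0.45 in males (adjusted p = 0.0622), where the unexposed mice spread from 26.0 to 45.5 CPM, and −0.03 in females. The male call was lost without any one of the 4 UVB males or of male no-UVB mice 1 and 2 (adjusted p = 0.1004 to 0.156), with the replicate block (0.108) and with every gene with a count (0.227).

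The polarity, cytoskeleton and membrane traffic list had 27 members. Of these, 23 fell and 2 rose in males and 22 fell in females, at medians of −0.93 and −0.77. *Lpp*, a LIM protein of focal adhesions at chr16:24212130-24811328, had 104, 107, 98.5 and 91.3 CPM in males without UVB and 53.3, 48.2, 41.1 and 53.3 CPM with UVB. In females it had 83.3, 104, 116 and 128 CPM without UVB and 52.3, 58.8, 48.9 and 50.2 CPM with UVB. The falls were by 1.01 (SE 0.08, adjusted p = 4.73e-06) and by 1.03 (SE 0.12, adjusted p = 0.000646). *Lpp* was thus close to equal in the sexes. *Nckap5*, at chr1:125841251-126758536, fell by 1.98 in males and by 2.14 in females, with no UVB mouse above 1.59 CPM and no unexposed mouse below 4.01 CPM. *Syne1*, which ties the nucleus to the cytoskeleton, fell by 0.67 and by 0.46.

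The transcription factors, chromatin regulators and RNA-binding proteins had the smallest median falls of the lists. Of 14, 10 fell and 1 rose in males and 5 fell in females, at medians of −0.46 and −0.30. *Zbtb20*, a zinc finger repressor, fell by 0.65 in males (adjusted p = 1.4e-05) and by 0.48 in females (adjusted p = 0.0172). *Celf2*, which binds RNA and regulates splicing, fell by 0.67 in males and had −0.23 in females (adjusted p = 0.19). *Rbfox1*, a splicing regulator of neurons and muscle, fell by 0.44 in males and had −0.00 in females.

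*Rora* belonged to the same group and went the other way. This nuclear receptor, at chr9:68561068-69295528, had 255, 246, 254 and 253 CPM in males without UVB and 383, 283, 343 and 307 CPM with UVB. All UVB males lay above all unexposed males, and the rise was 0.41 (SE 0.09, adjusted p = 0.00214). In females it had 188, 266, 254 and 194 CPM without UVB and 269, 261, 336 and 279 CPM with UVB, and was not called at 0.35 (SE 0.13, adjusted p = 0.101). It was called higher in females by the DESeq2 Wald test (adjusted p = 0.0733), with every gene with a count (0.0742), with the replicate block (0.0764) and without female UVB mouse 2 (0.0994) or female no-UVB mouse 2 (0.0720) or 3 (0.0977). The other members that rose in males were *Rasgef1b*, a Ras exchange factor, by 0.39 (adjusted p = 0.0172), and *Nav3*, a microtubule-binding protein, by 0.35 (adjusted p = 0.0236), both named after their values were seen. In females they had −0.12 and −0.05. By the edgeR test as used here, 1 member rose in females, *Agbl1*, a carboxypeptidase that acts on glutamates of tubulin and other proteins. It had 7.58, 11.0, 11.9 and 10.2 CPM without UVB and 13.1, 16.04, 15.7 and 12.5 CPM with UVB, a rise of 0.50 (SE 0.15, adjusted p = 0.0441) that was lost without female UVB mouse 3 (adjusted p = 0.112). In males *Agbl1* had −0.00.

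**Figure D4:**
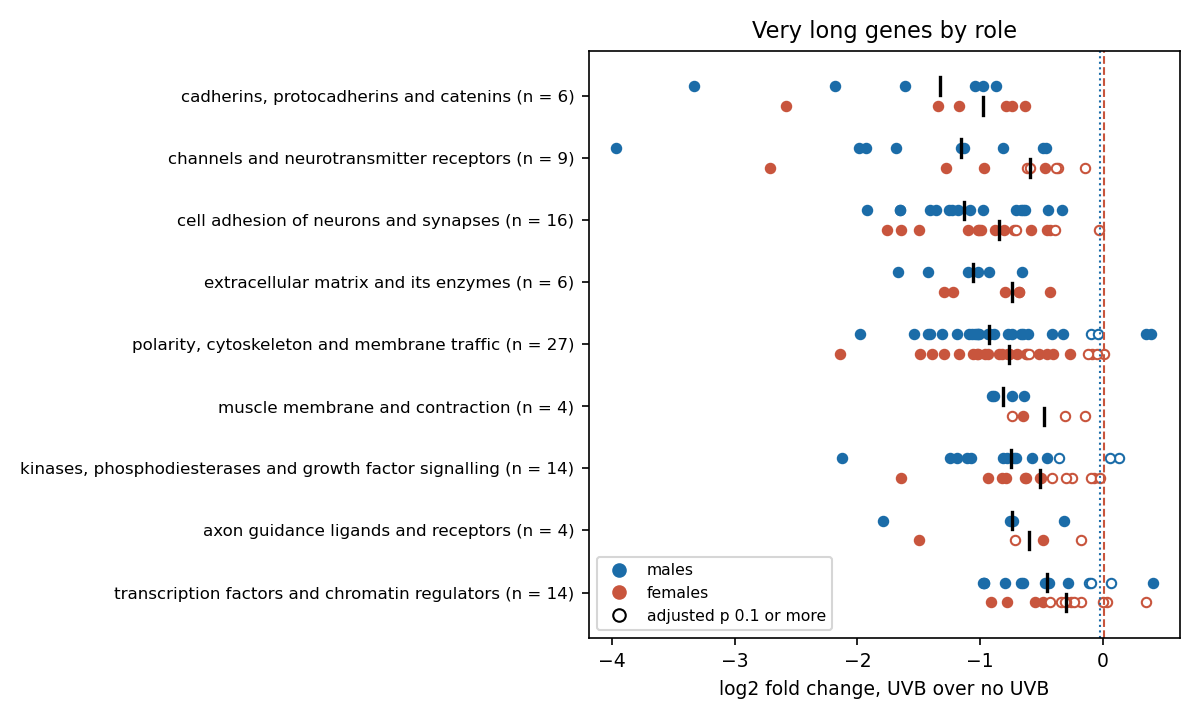
Log2 fold change of each member (UVB over no UVB, horizontal axis) in its role lists (vertical axis), in males and females, with open points for an adjusted p of 0.1 or more and vertical lines at the medians of the shorter genes. By the test as used here, all 6 members of the cadherin list (*Ctnna3* in females only in some fits) and all 6 of the matrix list fell in both sexes, while the transcription factor list reaches above 0 with *Rora*.

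The genes known from common fragile sites are large genes whose chromosomal bands break under replication stress. Of the 39 listed, 30 were members, and 26 fell and 1 rose in males and 21 fell in females, at medians of −1.08 and −0.81. *Fhit*, a diadenosine triphosphate hydrolase lost in many tumours, fell by 1.30 in males (adjusted p = 0.000264) and by 1.50 in females (adjusted p = 0.000988). *Dlg2*, a scaffold of synapses, fell by 1.31 and by 0.77. *Macrod2*, a hydrolase of ADP-ribose, fell by 0.64 in males and had −0.22 in females (adjusted p = 0.308). A further 22 members were in no list, and 20 of these fell in males, at a median of −0.84, and 15 in females, at −0.51. *Atrnl1*, an attractin-like membrane protein, was the most abundant of these and fell by 1.28 and by 0.90.

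The calls of the 2 sexes were then set side by side. Of the 129 members, 85 fell in both sexes, 31 in males only by these calls and 3 in females only by these calls, namely *Plcb1*, *Foxp1* and *Rabgap1l*. Over the 16323 genes tested in both sexes, 9.18% fell in both. Calls in one sex alone do not show a difference between the sexes. No member was called in opposite directions, and 6 were called in neither. Of the members that fell in males, 73.3% also fell in females, and of those that fell in females, 96.6% also fell in males, where the shares over all genes were 29.9% and 86.0%. Across the members the log2 fold changes of the sexes had a Spearman's rho of 0.80, and across all 13564 genes of the comparison it was 0.73. Among the 85 genes, the fall was larger in males for 68 and in females for 17, beside 1095 of 1498 (73.1%) of all genes that fell in both, so a larger male fall is not particular to the members.

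**Figure D5:**
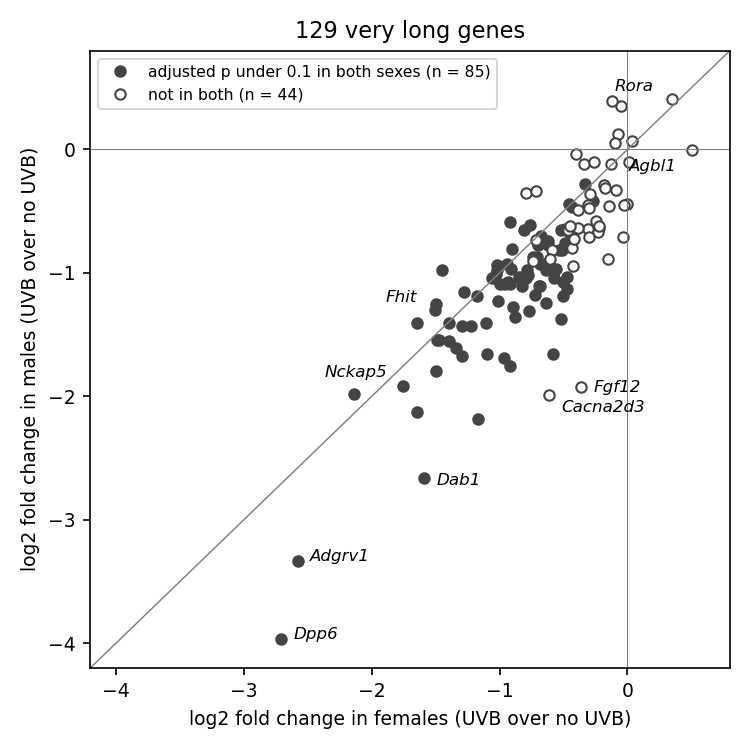
Log2 fold change of the 129 members (UVB over no UVB) in males (vertical axis) against females (horizontal axis), with points coloured by whether both sexes passed an adjusted p of 0.1 and a diagonal line of equal change. Of the 85 members that fell in both sexes, 68 lie below the diagonal.

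The difference between the sexes was tested as an interaction over all 16 mice, as the male response minus the female response. Its median was −0.21 for the members and −0.02 for the shorter genes. The difference passed an adjusted p of 0.1 for 11 members with a lower response in males and 2 with a higher one, where the background over all genes was 4.25% lower and 2.75% higher. Those background calls, 740 lower and 478 higher, became 641 and 687 with DESeq2 size factors and 852 and 401 with upper quartile scaling. The count of 11 rested on few mice, since it was 1 without female UVB mouse 1, 2 without male UVB mouse 1, 4 without male no-UVB mouse 1 or 2, 5 without female no-UVB mouse 3 or male UVB mouse 2, 6 without female UVB mouse 2 or female no-UVB mouse 2 and 7 without female no-UVB mouse 1 or male no-UVB mouse 4.

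The member with the clearest difference was *Ntrk3*, the receptor for neurotrophin-3. It had 13.3, 13.9, 14.1 and 13.9 CPM in males without UVB and 5.33, 4.85, 6.34 and 7.40 CPM with UVB. In females it had 17.7, 16.7, 14.7 and 14.2 CPM without UVB and 12.0, 11.3, 9.30 and 11.7 CPM with UVB. It fell in both sexes and further in males, with an interaction of −0.69 (SE 0.17, adjusted p = 0.0387) that stayed under 0.1 with any single mouse left out. *Dab1*, an adaptor of reelin signalling at chr4:103476556-104602041, went from 14.1, 11.0, 13.0 and 12.6 CPM to 1.93, 2.42, 1.85 and 1.72 CPM in males. In females it went from 9.66, 14.1, 17.5 and 12.5 CPM to 5.46, 3.64, 5.36 and 3.39 CPM. The groups were apart in both sexes, and the interaction was −1.09 (SE 0.27, adjusted p = 0.0418), or 0.101 without female UVB mouse 1.

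*Cacna2d3*, a calcium channel subunit, fell by 1.99 in males and had −0.62 in females (adjusted p = 0.113), with an interaction of −1.38 (adjusted p = 0.0483). *Negr1*, a neuronal adhesion protein, fell by 1.65 in males, with an interaction of −1.08 (adjusted p = 0.0511). Its female value of −0.58 (adjusted p = 0.0724) lost its call without female UVB mouse 3 or 4 or female no-UVB mouse 1, 2 or 4, with adjusted p of 0.112 to 0.177. The female value of *Cacna2d3* passed without female no-UVB mouse 1 (adjusted p = 0.0875), with upper quartile scaling (0.0951) and with at least 10 counts in every mouse (0.0922), and its interaction was lost with every gene with a count (0.113). Both interactions were lost without female UVB mouse 1 (adjusted p = 0.11 and 0.113) and without male UVB mouse 1 (adjusted p = 0.132 and 0.127). The members with a higher response in males, *Rasgef1b* and *Rabgap1l*, a Rab regulator, had interactions of 0.50 and 0.35 and were named after their values were seen. This count of 2 was 0 with every gene with a count, 0 without female UVB mouse 1, female no-UVB mouse 1, 2 or 3, male UVB mouse 1, 2 or 3 or male no-UVB mouse 2 or 4, and 1 without female UVB mouse 2 or 4, male UVB mouse 4 or male no-UVB mouse 1 or 3.

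The genes of the transcription machinery were read as a list of their own. A list of genes for elongation by RNA polymerase II and for transcription-coupled repair held 69 genes, of which 68 were measured and none was a member. In males 44 of the 67 tested rose (65.7%, where 29% of all genes did) and 4 fell, at a median of 0.20, though upper quartile scaling left 26 higher and 7 lower. In females 10 of 68 rose (14.7%, near the 12.8% of all genes) and 1 fell, at 0.08. *Ell2*, a subunit of the super elongation complex, rose by 0.79 in males (adjusted p = 8.65e-06) and by 0.46 in females (adjusted p = 0.00526). *Polr2a*, the largest subunit of the polymerase, rose by 0.66 and by 0.45. *Wwp2*, a ubiquitin ligase of the polymerase, fell by 0.44 and by 0.37. Of the repair factors named above, *Ercc6* had 0.27 in males (adjusted p = 0.025) and 0.08 in females, *Ercc8* had 0.28 (adjusted p = 0.125) and −0.00, and *Uvssa* had 0.21 (adjusted p = 0.0415) and 0.02.

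Markers of most skin cell types, none of them members, moved with UVB as well, while those of endothelium were not called. Hair follicle stem cell markers had median summed levels of 2351 CPM without UVB and 1196 CPM with UVB in males, where 6 of 8 fell, and of 2518 and 1494 CPM in females, where 3 of 8 fell. T cell markers had 224 and 174 CPM in males, where 7 of 7 fell, and 259 and 211 CPM in females, where 3 of 7 fell. The summed levels of both lists did not overlap between UVB and no UVB in either sex. Of 10 fibroblast markers, 9 fell and 0 rose in males, with 84957 and 31744 CPM, and in females 1 fell and 1 rose, with 21409 and 17189 CPM. Macrophage markers had 1408 and 1157 CPM in males, where 5 of 8 fell, and 1372 and 1180 CPM in females, where 1 fell.

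Of 10 Schwann cell and nerve markers, 8 fell and 2 rose in males, with 623 and 521 CPM, and 1 fell and 0 rose in females, with 608 and 629 CPM. The 8 neuron markers summed to 8.27 to 10.2 CPM in males without UVB and 6.36 to 7.85 CPM with UVB, with no overlap. In females they summed to 8.27 to 10.8 CPM and 6.46 to 12.5 CPM. Few neuron markers could be tested, and 1 of 2 fell in males and 1 of 3 in females. Adipocyte markers had 6 of 8 lower in males and 0 in females. Keratinocyte markers rose on balance in males, where 7 of 10 were higher and 1 lower, with 15795 and 31741 CPM, and in females 3 were higher and 1 lower, with 14915 and 16458 CPM. Neutrophil markers had 12.8 and 63.4 CPM in males, where 5 of 6 tested were higher, and 13.7 and 22.8 CPM in females, where 2 of 5 were, and the sums did not overlap in either sex. Of 7 sebocyte markers, 4 were higher and 1 lower in males and 3 higher in females. Of 8 smooth muscle and pericyte markers, 4 were lower and 1 higher in males and 2 lower in females. Of 6 melanocyte markers tested, 1 was lower and 3 higher in males and 1 lower in females. Of 8 endothelium markers, 0 were lower and 0 higher in either sex. Their summed levels were 521 and 482 CPM in males and 499 and 521 CPM in females, with overlap. The part of these shifts in the members' falls was not tested.

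The libraries held 16495776 to 33404831 reads on genes, with 70.08% to 79.22% of reads assigned. Reads outside genes made up 8.30% to 10.2% in unexposed males, 8.41% to 13.7% in UVB males, 10.1% to 13.0% in unexposed females and 9.30% to 12.4% in UVB females, ranges that overlap within each sex. Reads on the other strand made up 4.06% to 4.16% in unexposed females and 3.63% to 3.83% in UVB females, with no overlap, and 3.93% to 4.10% in unexposed males and 3.70% to 4.23% in UVB males. The part of this share in the members' falls was not tested. Long genes with fewer reads than the minimum had to be set aside. Of those 90, 12 could be tested in males, with 8 lower and 2 higher, and 9 in females, with 3 lower and 0 higher. Nearest inside the 1 CPM minimum stood *Ryr3* (1.24 CPM) and *Cacna2d3* (1.25 CPM). Nearest outside it stood *Nkain2* (0.928 CPM), with −1.14 in males and −0.74 in females, and *Slc7a11* (0.985 CPM). *Slc7a11*, the cystine transporter, had 0.699, 0.552, 1.21 and 0.860 CPM in males without UVB and 8.44, 10.8, 6.12 and 3.60 CPM with UVB, a log2 fold change of 3.13 against 0.28 in females.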

How the data were processed

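Total RNA of whole dorsal skin was polyA-enriched, made into strand-specific libraries and sequenced, and the authors aligned the reads with STAR to GRCm39. The deposited values are whole-number counts of reads per gene, with no normalization. The column for the library's strand was used, which gave 16495776 to 33404831 reads on genes per mouse, 70.08% to 79.22% of those counted, and the rows that name no gene were left out. Groups and replicate numbers came from the labels, with 4 mice in each. Gene lengths and sequences came from GENCODE M39 on GRCm39, and 610 of 55359 gene identifiers were not in it.

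CPM printed here were scaled by edgeR's TMM factors over all 16 mice, while membership used unscaled CPM. UVB was compared with no UVB in each sex by edgeR's quasi-likelihood test (edgeR 4.0.16, R 4.3.3, filterByExpr, robust), with Benjamini-Hochberg adjustment over 16535 genes in males and 16883 in females. The interaction used 17406 genes. The threshold of 0.1 follows the study, which also asked for a shrunken log fold change above 1. The main calls here used the adjusted p alone, and the stricter calls an unshrunken log2 fold change past 1. The p-values set the difference between groups against the spread between mice within them. No mice differed by as little as counting noise, with chi-square per degree of freedom of 9.54 to 98.3 within groups. The fits were first tested on simulated data.

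The members and the lists were chosen with earlier results of these data known. Genes are named by rule: the 10 longest and 10 most abundant members, in each sex the 8 largest falls and 5 largest rises among calls without overlap, the 2 genes on each side of both thresholds, the 5 smallest interaction p, the 2 most abundant members of each list, and up to 4 elongation genes per sex. Others are said to be chosen after their values were seen, and members named for their lists' exceptions (*Magi2*, *Mecom*, *Foxp1*, *Zfhx3*, *Plcb1*, *Rabgap1l*, *Rasgef1b*, *Nav3*) and the repair genes *Ercc6*, *Ercc8* and *Uvssa* were also named outside the rule.

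Alternatives tried were other scalings (DESeq2 size factors, upper quartile), the DESeq2 Wald test (DESeq2 1.42.0), unstranded counts, other filters, other definitions of the members, a replicate block and leaving out each mouse.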

Additional observations from a re-analysis of the deposited data

Results flagged for a closer look

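In 13 groups of 4 mice, of 228 tested, 1 mouse stood apart by Dixon's criterion at 95%, which sets the gap to the nearest mouse against the range of the group. Chance alone gives about 1 in 20 groups. Among unexposed males the lowest *Rora* value was 246 CPM, and the highest values were 2.30 CPM for *Adgrv1*, 9.17 CPM for *Negr1* and 60.1 CPM for *Adamtsl1*. Among UVB males the lowest were 22.3 CPM for *Pde4d* and 92.2 CPM for *Supt16*, and the highest were 77.9 CPM for *Celf2*, 3.60 CPM for *Negr1* and 38.4 CPM for *Tenm2*. Among unexposed females the lowest long-gene level was −0.0912, the highest *Lama2* value was 174 CPM and the lowest *Slc7a11* value was 0.859 CPM. Among UVB females the lowest *Wwp2* value was 49.8 CPM.

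Of the genes named by the rule, 10 had a call in the interaction test of edgeR's quasi-likelihood fit. As the male minus the female log2 fold change, members were at −0.45 for *Celf2*, −0.39 for *Atrnl1*, −1.09 for *Dab1*, −1.38 for *Cacna2d3*, −1.57 for *Fgf12*, −0.69 for *Ntrk3* and −1.08 for *Negr1*. Of genes outside the members, *Slc7a11* was at 2.84, *Supt6*, a histone chaperone of elongation, at 0.31 and *Supt16*, a subunit of the FACT histone chaperone, at 0.40. Leaving out 1 mouse ended the call in 10 of 16 fits for *Celf2* and *Supt6*, 11 for *Fgf12* and 5 for *Atrnl1*. The replicate block also ended the calls of *Celf2* (adjusted p = 0.114) and *Atrnl1* (0.102), and testing every gene with a count ended those of *Fgf12* (0.101), *Supt6* (0.172) and *Cacna2d3* (0.113). *Dab1*, *Cacna2d3* and *Negr1* lost theirs without female UVB mouse 1.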

How the results depend on the processing

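No value that passed its test, and no median difference or long-gene level, changed sign under an alternative, while 59 of 3012 values, from 14 results that were not called, did. Over all genes the balance of calls moved with the scaling in males, females and the interaction, as given beside those counts. The filter moved it in males, as given there. With every gene with a count, interactions were 495 lower and 229 higher. Female calls were then 1483 lower and 1816 higher, a balance close to the main one. The DESeq2 Wald test gave 938 lower and 1102 higher interactions. Long-gene levels in this section are the mean of the UVB mice minus that of the no-UVB mice. With the main settings they were −0.81 in males and −0.63 in females. With a record of at least 300 kb, 323 genes were lower and 9 higher in males and 242 lower and 2 higher in females. Interactions were then 29 lower and 4 higher, the male median difference from shorter genes −0.74 and the male level −0.71. With 1000 kb the counts in the same order were 27, 0, 19, 0, 1 and 0. The median differences were then −0.95 and −0.75 and the male level −0.86. By canonical span 1 was higher in males, interactions were 5 lower and 1 higher, and the median differences were −0.96 and −0.74. Past a log2 fold change of 1 there were 54 lower and 0 higher in males and 29 and 0 in females. The count higher in females was 2 under the DESeq2 Wald test, every gene with a count, the replicate block and the fit of all 16 mice. Interactions were 6 lower and 0 higher with every gene with a count, and 1 higher with unstranded counts, upper quartile scaling or the block. The male median difference was −0.86 with at least 10 counts or with at least 6 kb of exon and −0.75 with at most 10 CPM, where the level was −0.70, and the level was −0.87 with a pseudocount of 0.1 CPM, chosen after seeing the data. With the replicate block, 114 members fell and 3 rose in males and 86 fell and 2 rose in females, with 10 lower and 1 higher interactions. The numbers were not taken to pair mice, since deviations of same-numbered mice from their group means correlated at −0.168 to 0.286 and not all mice correlated best with their own number. Leaving out 1 mouse gave 111 to 115 lower and 3 to 4 higher in males, 76 to 92 lower and 0 to 2 higher in females, and 1 to 12 lower and 0 to 2 higher interactions, with median differences of −0.93 to −0.86 and −0.71 to −0.61 and levels of −0.83 to −0.79 and −0.67 to −0.59. With the minimum set over the UVB mice, 116 genes were members, and 102 fell in males and 79 in females.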
